A study of Mus musculus with 21 samples.

Results

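The 10 genes described here are the genes most used to follow the melanocyte lineage: Mitf, Kit and Ednrb, which act in the specification, survival and migration of melanoblasts, and Dct, Tyr, Tyrp1, Pmel, Mlana, Slc45a2 and Oca2, which serve the melanosome and the making of pigment. They were picked by gene symbol, with earlier results of these data known, and all 10 were found among the 24594 genes of both count tables. RNA was sequenced from mouse embryonic tissue in 7 groups of 3 libraries each. Of the 10 genes, 9 passed the filter on low counts in the stage series and 5 passed it in the genotype series.

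The stage series held 9 libraries of neural crest cells sorted for red fluorescence from Wnt1::Cre;ROSARFP embryos, in which Cre under the Wnt1 promoter, active in premigratory neural crest and dorsal neural tube, switches on the reporter permanently. All carried the WT genotype label. At E10.5 the cells were taken from PA2, the second arch of the embryonic pharynx, and at the later stages, E12.5 and E14.5, from the external ear or pinna, whose crest comes largely from that arch. Tissue was dissociated with trypsin at E10.5 and E12.5 and with papain at E14.5. Stage and enzyme therefore cannot be told apart in the second step, nor can stage and dissection site in the first. The genotype series held 12 libraries of E10.5 tissue: PA2 and PA3, the next arch behind it, of WT embryos and of HIRE1del/del embryos, which lack both copies of HIRE1, a cluster of distal enhancers of Hoxa2 removed by CRISPR-Cas9. No cell sort was described for the genotype series. In both series, by the study's methods, the mice were on a mixed C57Bl/6J;CD1 background and both sexes were pooled. The 2 series were normalised separately and are set side by side without a test between them. In both, RNA was extracted from many cells together, so fewer cells of the lineage and less RNA per cell cannot be told apart.

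Melanocytes arise from neural crest cells that take the transcription factor MITF as their master regulator. KIT, the receptor for KIT ligand, and EDNRB, the receptor for endothelin-3, carry the signals on which melanoblast survival, proliferation and migration depend, and both are also found on other crest derivatives. MITF then binds E-box motifs upstream of pigment genes. Tyrosinase, encoded by Tyr, carries out the rate-limiting oxidation of tyrosine, and its relatives TYRP1 and DCT act on later intermediates of eumelanin synthesis. PMEL forms the fibrils on which melanin is laid down, MLANA helps PMEL mature, and SLC45A2 and OCA2 are membrane transporters that set the melanosome's internal pH. DCT is known as an early melanoblast marker, and TYR and TYRP1 as later ones.

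The windows upstream of the 3 tyrosinase-family genes show the letters that MITF is known to read. Sequences are RefSeq's, on GRCm38.p6, written 5′ to 3′ on the gene's own strand and ending at the base before the RefSeq start. For Tyrp1 a stretch of 30 bases is shown. Capitals mark CATGTG, the E-box core, or its reverse complement CACATG.

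Dct promoter, chr14:118052247-118052496, minus strand: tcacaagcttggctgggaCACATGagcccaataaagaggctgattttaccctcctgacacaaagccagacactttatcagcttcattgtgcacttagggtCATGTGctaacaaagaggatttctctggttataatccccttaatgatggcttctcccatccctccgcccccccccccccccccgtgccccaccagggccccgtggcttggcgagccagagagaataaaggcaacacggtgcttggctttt

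Tyr promoter, chr7:87493513-87493762, minus strand: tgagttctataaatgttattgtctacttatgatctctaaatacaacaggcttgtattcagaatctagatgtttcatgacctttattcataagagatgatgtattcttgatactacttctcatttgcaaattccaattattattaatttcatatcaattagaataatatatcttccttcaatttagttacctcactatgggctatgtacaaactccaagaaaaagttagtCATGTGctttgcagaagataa

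Tyrp1 site, chr4:80834155-80834184, plus strand: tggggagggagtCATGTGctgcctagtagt

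The E-box core began 21 bases before the RefSeq start in Tyr and 46 bases before it in Tyrp1. The Tyrp1 site lies inside the gene span given below, which is GENCODE's and begins before the RefSeq start. Dct held it at 150 bases and, in reverse complement, at 232 bases before the start. Oca2 held one reverse complement copy at 186 bases. Of the 10 genes, 7 had a promoter in the table used, and the windows of Mitf, Kit and Ednrb did not contain these letters. Searched on both strands, CATGTG was found in 12.25% of all 32851 promoter windows of 250 bases, and TCATGTG, which contains it, in 3.25%. The match is a description of the letters and was not tied to binding in these cells.

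Libraries summed to 29224954 to 30219297 counts at E10.5, 25814151 to 29481281 at E12.5, 47506139 to 49058941 at E14.5 and 25804446 to 32210131 in the genotype series. Levels are given as CPM, a gene's counts scaled to a library of 1000000 counts. A floor of 3 counts was worth 0.0631 to 0.111 CPM in the stage series and 0.0924 to 0.117 CPM in the genotype series. Library totals were adjusted by the trimmed mean of M values, and differences are log2 fold changes ± SE. Hoxa2, whose enhancers the deletion removed, was at 78.3 CPM in WT PA2, 5.87 CPM in HIRE1del PA2, 61.4 CPM in WT PA3 and 23.8 CPM in HIRE1del PA3, so it followed the genotype labels. The 6 crest mesenchyme markers summed to 1606 to 1855 CPM at E10.5, 3420 to 3702 CPM at E12.5 and 3628 to 4029 CPM at E14.5; 5 of them were higher in the first step, but 4 were lower and 2 higher in the second, where Pdgfra carried the sum (means of 2311 and 3004 CPM).

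The first question was how the lineage's genes changed as PA2 crest became the pinna. All but 1 of the tested genes rose from E10.5 to E12.5, and all 9 rose again from E12.5 to E14.5. The exception was Kit, which fell in the first step and rose in the second. In the first step 8 of 9 tested genes were higher and 1 was lower, where 35.0% of all 13438 tested genes were called higher and 33.7% lower. In the second step 9 of 9 were higher, against 32.6% of all genes higher and 33.1% lower. Tyrp1 and Mlana passed the filter through the E14.5 libraries only, so that they had to be higher there, and the counts of tested genes are given as descriptions. Dct, Tyr and Slc45a2 would not have passed it on the E10.5 libraries, so their rises from E10.5 are not independent of it either. Over both steps together, E14.5 against E10.5, 8 were higher and 1 lower, against 42.0% and 40.0%. The median log2 fold change of the tested genes was 3.09 in the first step, or 2.87 with Tyrp1 at its lower bound, and 3.16 in the second, while the median of all genes was 0.01 and -0.01. In the second step every E14.5 library was above every E12.5 library for each of the 9 tested genes, an arrangement found in 34.9% of all tested genes. The plot of CPM by stage shows the 10 genes on a shared log axis.

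**Figure D1:**
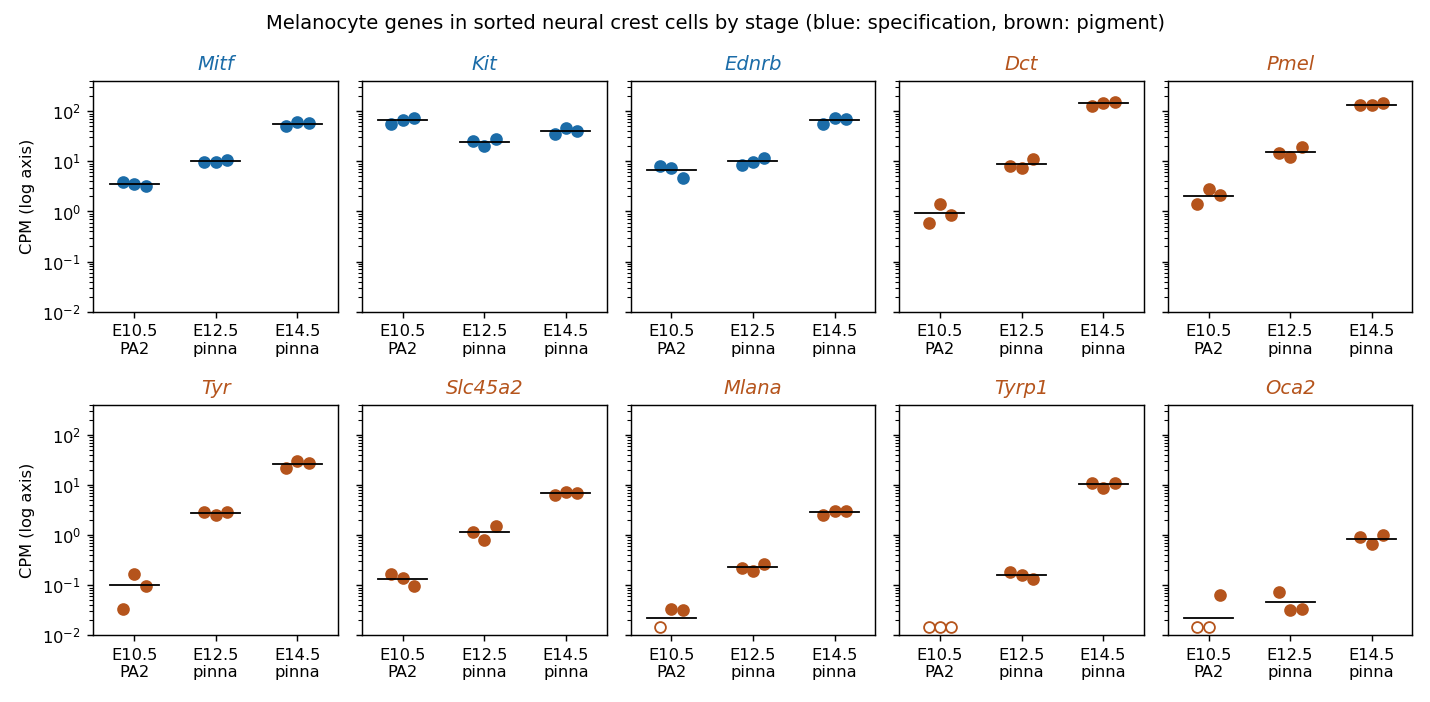
CPM of the 10 genes in each of the 9 libraries of sorted crest cells, by stage, on a log axis; points are libraries, bars are group means and open symbols at the bottom are libraries with no count. All 7 pigment genes were highest at E14.5, where they summed to 304 to 349 CPM, while Kit was highest at E10.5, at 54.4 to 73.9 CPM.

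Mitf, the lineage's master transcription factor (ENSMUSG00000035158, chromosome 6, 97807052 to 98021349, plus strand, GRCm38), was already read at E10.5. Its 3 libraries stood at 3.88, 3.60 and 3.20 CPM at E10.5, at 9.73, 9.66 and 10.7 CPM at E12.5, and at 51.8, 59.8 and 57.8 CPM at E14.5. The 3 stages did not overlap, and replicates lay close together at each. Mitf rose by 1.50 ± 0.10 on the log2 scale in the first step (adjusted p = 2.92e-07, edgeR's quasi-likelihood test with Benjamini-Hochberg adjustment) and by 2.49 ± 0.09 in the second (adjusted p = 3.90e-09).

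Kit, the receptor tyrosine kinase for KIT ligand (ENSMUSG00000005672, chromosome 5, 75574916 to 75656722, plus strand), took another course. It was read at 54.4, 67.6 and 73.9 CPM at E10.5, at 25.4, 20.1 and 27.5 CPM at E12.5 and at 35.6, 45.2 and 40.2 CPM at E14.5. Every E10.5 library was above every later one, and every E12.5 library was below every E14.5 one. Kit fell by 1.43 on the log2 scale (SE 0.14, adjusted p = 4.36e-06, edgeR) in the first step and rose by 0.73 ± 0.14 in the second (adjusted p = 0.000776), which left it lower at E14.5 than at E10.5 (-0.69 ± 0.14, adjusted p = 0.000542). For mast cells, which also carry KIT, 7 other markers summed to at most 0.264 CPM in any stage library, and 3 of the 7 had no count in all 9. The part of these cells in the level of Kit was not tested.

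Ednrb, the endothelin receptor of the early lineage (ENSMUSG00000022122, chromosome 14, 103814625 to 103844402, minus strand), rose little in the first step and steeply in the second. Its libraries stood at 7.93, 7.48 and 4.67 CPM at E10.5, 8.50, 9.63 and 11.9 CPM at E12.5, and 55.2, 73.3 and 70.6 CPM at E14.5. The first 2 stages came close to each other without overlapping, and the last was far above both. The first step was 0.58 ± 0.20 (adjusted p = 0.0212, edgeR), a call that was lost without E10.5 replicate 3 (0.38, adjusted p = 0.0721) and without E12.5 replicate 3 (0.46, adjusted p = 0.0872). The second step was 2.73 ± 0.18 (adjusted p = 2.77e-07).

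Dct, dopachrome tautomerase (ENSMUSG00000022129, chromosome 14, 118012790 to 118052244, minus strand), passed from near 1 CPM to one of the highest levels in the set. It was read at 0.602, 1.41 and 0.850 CPM at E10.5, at 8.06, 7.28 and 11.1 CPM at E12.5 and at 128, 148 and 155 CPM at E14.5. No 2 stages overlapped. Dct rose by 3.21 ± 0.25 in the first step (adjusted p = 6.50e-07, edgeR) and by 4.02 ± 0.17 in the second (adjusted p = 1.02e-08), a rise of 7.23 ± 0.22 over both.

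Pmel, which encodes the fibril protein of the melanosome (ENSMUSG00000025359, chromosome 10, 128704195 to 128720238, plus strand), rose in both steps like Dct, though less over both together (6.03 ± 0.21 against 7.23 ± 0.22). Its CPM was 1.41, 2.75 and 2.09 at E10.5, 14.4, 11.98 and 19.4 at E12.5 and 133, 130 and 144 at E14.5. The stages did not overlap, and the rise was 2.87 ± 0.22 (adjusted p = 5.53e-07, edgeR) and then 3.16 ± 0.17 (adjusted p = 5.04e-08). Of Pmel's 2292 exonic bases, 139 are shared with genes on the opposite strand (Cdk2 and Dgka), so a small part of its reads may be theirs.

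Tyr, tyrosinase itself (ENSMUSG00000004651, chromosome 7, 87424771 to 87493512, minus strand), was close to the floor at E10.5, at 0.0335, 0.172 and 0.0980 CPM. It stood at 2.90, 2.48 and 2.96 CPM at E12.5 and at 21.8, 30.6 and 27.1 CPM at E14.5. The groups were far apart in both steps. Tyr rose by 4.74 ± 0.33 in the first step (adjusted p = 3.16e-07, edgeR) and by 3.25 ± 0.17 in the second (adjusted p = 4.68e-08). The first value rests on few E10.5 counts and was 5.32 without E10.5 replicate 2.

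Tyrp1, tyrosinase-related protein 1 (ENSMUSG00000005994, chromosome 4, 80834123 to 80851719, plus strand), was the last of the enzymes to be read. It had no count in any E10.5 library and 5, 5 and 4 counts at E12.5, or 0.186, 0.163 and 0.136 CPM. At E14.5 it had 508, 424 and 506 counts, or 11.2, 8.91 and 11.1 CPM. The E12.5 level was at least 1.61-fold above the E10.5 floor of 3 counts a library (adjusted p = 0.000446, edgeR), and the E14.5 level at least 103-fold above it. From E12.5 to E14.5 Tyrp1 rose by 5.98 ± 0.25 (adjusted p = 7.04e-08, edgeR), the steepest second step of the 9 tested genes. Since Tyrp1 passed the filter through the E14.5 libraries only, this rise is not independent of the filter. The size and the p are given as descriptions.

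Slc45a2, the melanosomal transporter (ENSMUSG00000022243, chromosome 15, 11000721 to 11029233, plus strand), was at 0.167, 0.137 and 0.0980 CPM at E10.5, 1.15, 0.816 and 1.53 CPM at E12.5 and 6.19, 7.40 and 7.07 CPM at E14.5. Its stages did not overlap, and it rose by 3.09 ± 0.35 (adjusted p = 1.30e-05, edgeR) and by 2.56 ± 0.23 (adjusted p = 2.67e-06). Mlana (ENSMUSG00000024806, chromosome 19, 29697824 to 29708634, plus strand) had 2 counts over the 3 E10.5 libraries and 20 over the 3 E12.5 libraries, a ratio of 10.3 in CPM with an exact 95% counting interval of 2.50 to 90.9 (adjusted p = 0.000754, edgeR). It then went from 0.223, 0.196 and 0.272 CPM to 2.51, 3.07 and 3.07 CPM, a rise of 3.63 ± 0.31 (adjusted p = 1.64e-06, edgeR). Since Mlana passed the filter through the E14.5 libraries only, this rise is not independent of the filter and is a description. Slc45a2 and Mlana were low at every stage beside Dct and Pmel and rose in both steps. Oca2 (ENSMUSG00000030450, chromosome 7, 56239760 to 56536518, plus strand) missed the filter and was not tested. It stood at 0, 0 and 0.0654 CPM at E10.5, 0.0743, 0.0327 and 0.0340 CPM at E12.5 and 0.903, 0.652 and 0.985 CPM at E14.5, and its E14.5 level was 18.4 times that of E12.5 (exact 95% counting interval 6.98 to 68.5, from 117 and 4 counts).

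The order of the genes over time was then read from each gene's level at an earlier stage as a percent of its own E14.5 mean, which needs no comparison between genes of different length. At E10.5 the 3 specification genes came first: Kit stood at 162 ± 24.7% of its E14.5 mean (SD, n = 3), Ednrb at 10.1 ± 2.66% and Mitf at 6.31 ± 0.60%. The 7 pigment genes followed, at 2.57% for Oca2, 1.95% for Slc45a2, 1.53% for Pmel, 0.775% for Mlana, 0.665% for Dct, 0.382% for Tyr and 0% for Tyrp1. Kit, Ednrb and Mitf were apart from each other in their libraries. From Oca2 to Tyr, each pigment gene overlapped the next in this order. Tyrp1 had no count, and since a floor of 3 counts would put it above the Tyr libraries on this scale, the order of these last 2 is not resolved. The Oca2 libraries, with 2 counts in all, reached from 0 to 7.72% and so overlapped those of Mitf and Ednrb.

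At E12.5 the order was less sharp. Kit was at 60.3 ± 9.48% of its E14.5 mean, Mitf at 17.8 ± 1.07%, Slc45a2 at 16.9 ± 5.18% and Ednrb at 15.1 ± 2.57%. Pmel followed at 11.2 ± 2.77%, Tyr at 10.49 ± 0.98%, Mlana at 7.99 ± 1.337%, Dct at 6.14 ± 1.40% and Oca2 at 5.55 ± 2.79%, and Tyrp1 was last at 1.56 ± 0.24%. Among neighbours in this order, the libraries were apart only between Kit and Mitf and between Oca2 and Tyrp1. Slc45a2 therefore could not be set apart from Mitf and Ednrb, nor Ednrb from Pmel. Dct, at 5.08 to 7.73%, lay below every library of Pmel (8.81 to 14.2%) and Tyr (9.37 to 11.2%). Its range overlapped those of Mlana and Oca2.

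**Figure D2:**
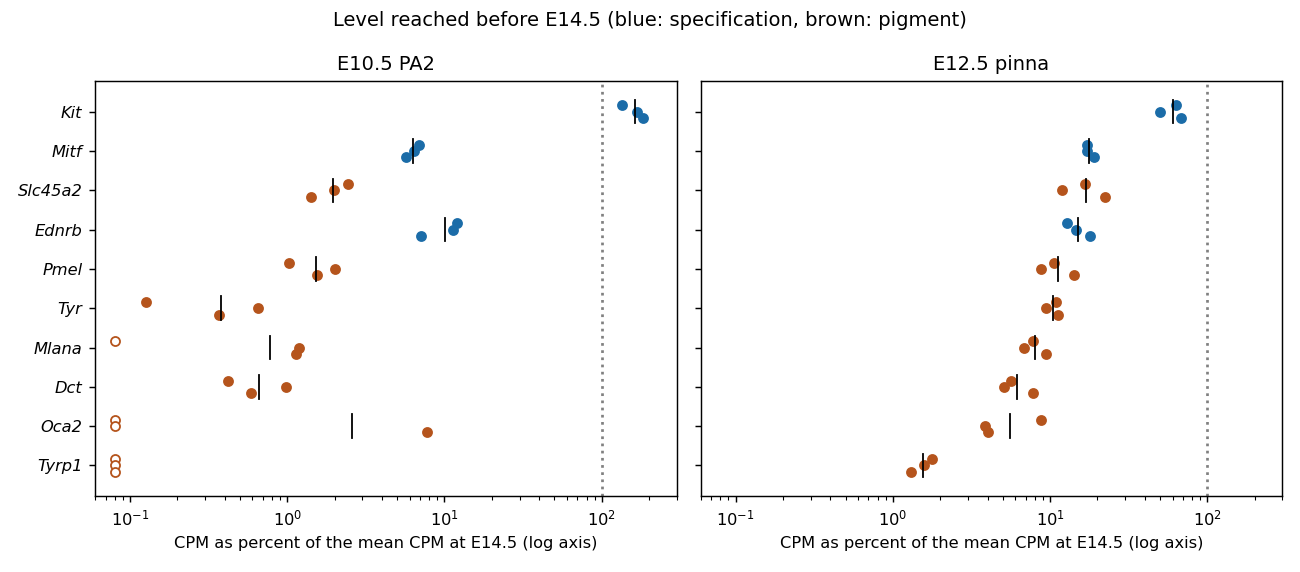
Level of each gene at E10.5 and E12.5 as a percent of its E14.5 mean, on a log axis, with 1 point a library, open symbols for libraries with no count and a dotted line at 100%. Kit was the only gene above the line, at 162% at E10.5, and Tyrp1 had no count at E10.5 and the lowest mean at E12.5, 1.56%.

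Summed over the 7 pigment genes, the level was 2.21 to 4.50 CPM at E10.5, 23.0 to 35.4 CPM at E12.5 and 304 to 349 CPM at E14.5. The 3 specification genes summed to a mean of 75.6, 44.4 and 163 CPM at the same stages, the E10.5 figure being mostly Kit. The mean log2 ratio of pigment to specification genes, each at log2(CPM + 0.5), was -3.97 ± 0.16 at E10.5, -2.71 ± 0.05 at E12.5 and -1.82 ± 0.13 at E14.5 (SD, n = 3). Pigment genes thus made up a growing part of the set at each stage, with no overlap between stages, and this ratio is given as a description. Its size depends on the constant added, since most pigment genes were below 0.5 CPM at E10.5: the E10.5 value was -5.37 with 0.1 CPM and -2.63 with 2 CPM.

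Whether a gene moved differently in the second step than in the first was tested in the same fit as the difference of the steps. Values are the second step minus the first, with their signs. For Ednrb it was 2.15 ± 0.33 on the log2 scale (adjusted p = 0.000404, edgeR) and for Mitf 0.99 ± 0.17 (adjusted p = 0.000683), 2 genes that rose in both steps and more in the second. For Kit it was 2.16 ± 0.25 (adjusted p = 5.37e-05), the gap between a fall of 1.43 and the smaller rise of 0.73 that followed. Tyr went the other way, at -1.49 ± 0.50 (adjusted p = 0.0313), but this call was lost without E10.5 replicate 1 (-1.08, adjusted p = 0.107), E10.5 replicate 3 (-1.47, adjusted p = 0.0736), E12.5 replicate 1 (-1.43, adjusted p = 0.0689) or E12.5 replicate 3 (-1.41, adjusted p = 0.0761). The count was 3 higher and 1 lower of 9 tested, where 20.5% of all genes were higher and 22.9% lower. Dct missed the threshold at 0.81 ± 0.38 (adjusted p = 0.106) but passed it in DESeq2's Wald test (adjusted p = 0.0244), by which 22.3% of all genes were higher. Pmel (0.28) and Slc45a2 (-0.52) missed it too. Tyrp1 and Mlana, with 0 and 2 counts at E10.5, are among those not called, but nothing is read from that, since their first steps are a bound and a ratio with a wide interval.

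**Figure D3:**
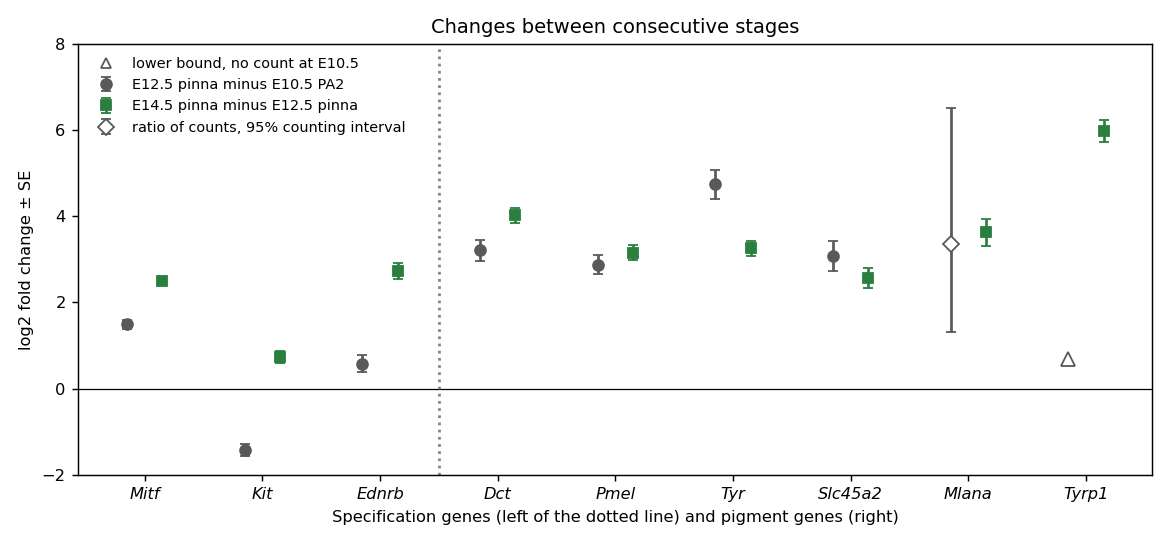
Log2 fold change ± SE of each gene in the step from E10.5 to E12.5 and in the step from E12.5 to E14.5; for Mlana the first step is the ratio of counts with its 95% counting interval and for Tyrp1 a lower bound, shown as a triangle, and Oca2 is not shown. Kit alone lies below 0 in the first step, at -1.43, and Tyr lies higher in the first step (4.74) than in the second (3.25).

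Levels between genes were compared by length, as the CPM for each kilobase of exon (RPKM), with the exon lengths deposited with the counts. For Dct and Kit these were 2659 and 6284 bases, against 5895 and 8911 bases in GENCODE. The places of Dct and Kit among the genes, and the size of ratios with Dct, therefore depend on the annotation. At E10.5 Kit was highest, at 10.4 ± 1.58 RPKM (SD, n = 3), above Ednrb (1.57 RPKM), Pmel (0.908 RPKM), Mitf (0.575 RPKM) and Dct (0.358 RPKM), each of which overlapped its neighbour in this order. At E12.5 Pmel led at 6.66 RPKM, followed by Kit at 3.87, Dct at 3.31, Ednrb at 2.34 and Mitf at 1.62 RPKM; Kit overlapped Dct, and Dct overlapped Ednrb. At E14.5 Pmel and Dct stood well above the others, at 59.4 ± 3.25 and 53.9 ± 5.33 RPKM, and their libraries overlapped. Ednrb (15.6 RPKM), Mitf (9.11 RPKM) and Kit (6.42 RPKM) came next, then Tyr (3.73 RPKM) with Tyrp1 (3.68 RPKM), whose libraries overlapped, then Mlana (2.73 RPKM) with Slc45a2 (2.31 RPKM), which overlapped too, and Oca2 last at 0.214 RPKM. The level of Dct relative to Mitf, as a ratio of RPKM, went from 0.630 to 2.03 to 5.91 over the stages. Pmel relative to Dct went down, from 2.61 to 2.00 to 1.11. Tyr relative to Dct was 0.0365, 0.121 and 0.0689, highest at E12.5, and Tyrp1 relative to Dct was 0, 0.0181 and 0.0688, highest at E14.5. These ratios are descriptions over 3 libraries a stage.

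Other genes of the lineage were taken from 3 lists, whose counts stand beside the 35.0% of all tested genes that were higher and the 33.7% that were lower in the first step, and the 32.6% and 33.1% in the second. Among 13 melanoblast regulators, 10 were tested; 5 were higher and 1 lower in the first step (median 0.65) and 8 were higher and 1 lower in the second (median 1.94). Pax3, a crest transcription factor that acts on the Mitf promoter, rose by 2.31 ± 0.39 and then by 3.20 ± 0.27, from 0.304 to 1.50 to 13.9 CPM. Sox10, the other main activator of Mitf, did not pass the test in the first step (-0.26 ± 0.24, adjusted p = 0.343, edgeR) and rose by 2.16 ± 0.23 in the second (adjusted p = 9.17e-06), from 5.25 and 4.37 to 19.5 CPM. Mitf relative to Sox10, as a ratio of RPKM, was 0.345, 1.14 and 1.49 at the 3 stages. Tfap2a, an activator of early crest genes, fell by 1.48 on the log2 scale (SE 0.31) in the first step, and Snai2 (1.39 ± 0.12) and Lef1 (1.27 ± 0.09) rose in it. Tfap2b, Zeb2 and the neuregulin receptor gene Erbb3 rose in the second by 2.85 ± 0.24, 2.43 ± 0.09 and 2.23 ± 0.09. Tfap2b passed the filter through the E14.5 libraries only, so its rise is not independent of the filter. Exonic bases are shared with genes on the opposite strand in Tfap2a (718 of 4903), Lef1 (1208 of 8788) and Zeb2 (657 of 19942). Part of their reads may come from that strand.

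All 8 ligands and receptors were tested; 5 were higher and 2 lower in the first step (median 0.35) and 4 higher and 1 lower in the second (median 0.56). Kitl, the ligand of KIT, was at 11.9 CPM at E12.5 and 87.0 CPM at E14.5, a rise of 2.87 ± 0.28 (adjusted p = 4.90e-06, edgeR). Edn3, the ligand of EDNRB, rose by 0.99 ± 0.07 and Ece1, whose enzyme activates it, by 1.07 ± 0.07 in the second step. Mc1r, the melanocortin receptor of pigment cells, rose by 3.89 ± 0.41 and then by 2.63 ± 0.24, from 0.0555 to 0.881 to 5.45 CPM. Of Mc1r's 3638 exonic bases, 653 are shared with Gm38092 on the opposite strand, so a part of its reads may be that gene's. In the first step Hgf fell by 2.90 on the log2 scale (SE 0.10) and Adamts20 by 1.15 (SE 0.20), while Met, the receptor for HGF, rose by 1.27 ± 0.16.

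All 13 genes for melanosome building and transport were tested; 7 were higher and 2 lower in the first step (median 0.55) and 6 higher and 4 lower in the second (median 0.06), the 4 lower of 13 being near the share over all genes. Slc24a5, an ion exchanger of the melanosome, went from 0.0114 to 1.06 to 15.8 CPM, with 3.89 ± 0.23 in the second step, and the melanosomal receptor gene Gpr143 from 0 to 0.288 to 1.95 CPM, with 2.75 ± 0.52. Gpr143 passed the filter through the E14.5 libraries only, so that it had to be higher there. Of Slc24a5's 2330 exonic bases, 921 are shared with Myef2 on the opposite strand, so its values are uncertain. Mlph, which links melanosomes to myosin, rose by 3.16 ± 0.42 in the first step, and Gpnmb rose by 2.10 ± 0.25 and 2.63 ± 0.19. Trpm1 fell by 1.68 on the log2 scale (SE 0.09) and then rose by 2.00 ± 0.09.

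**Figure D4:**
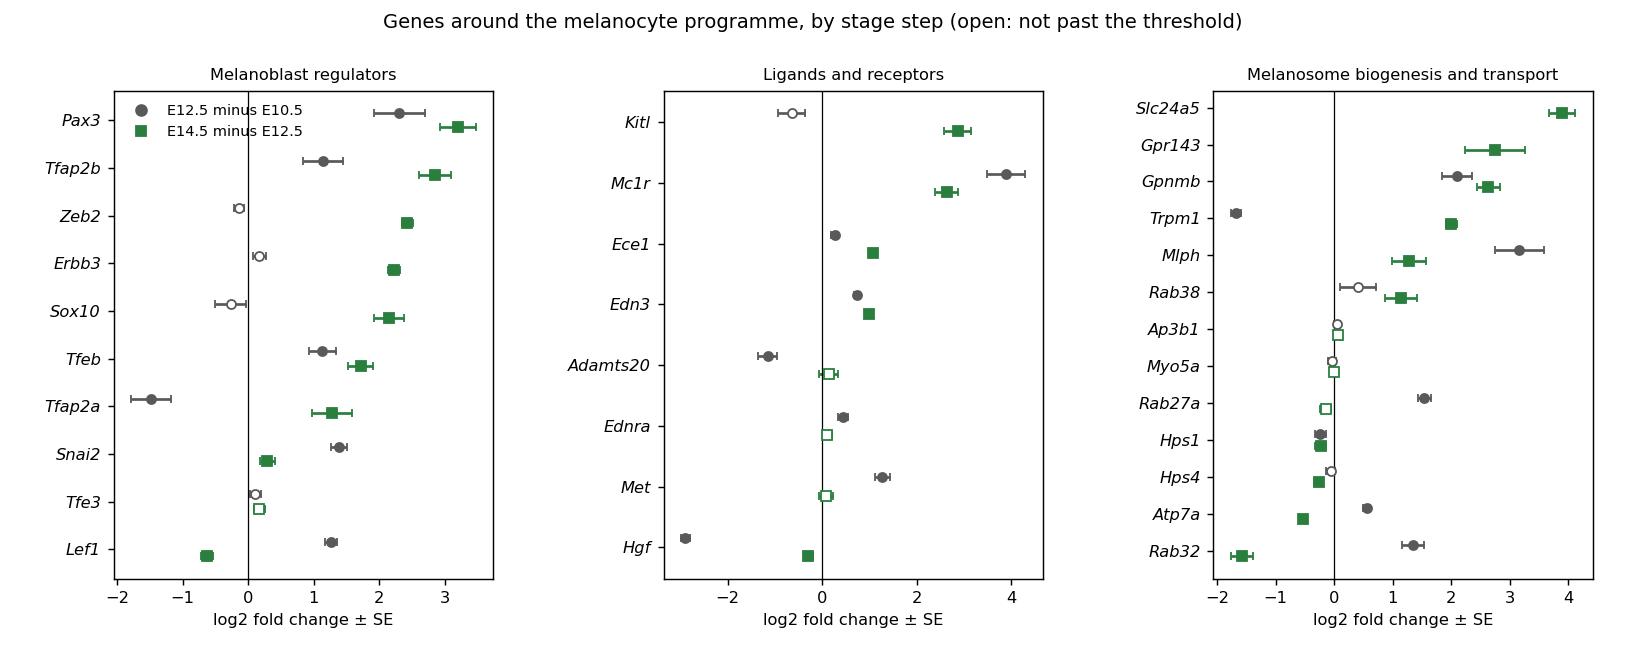
Log2 fold change ± SE of the tested genes of 3 lists (melanoblast regulators, ligands and receptors, melanosome building and transport) in each stage step, with open symbols for genes not past the threshold; Slc24a5 and Gpr143 are left out of the first step, having at most 1 count at E10.5. The regulators lie mostly above 0 in the second step (8 of 10 higher), while the melanosome list is spread around 0 (6 higher, 4 lower).

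Over the 9 stage libraries, Pearson's r with the mean of the 7 pigment genes was 0.995 for Mitf, 0.978 for Ednrb and -0.25 for Kit; the libraries form 3 stages, so r mostly reflects the stage means. The tested genes whose pattern was most like the pigment mean, members left out, were Nr3c2, Cd9, Cers4, Fgd5 and Tns2 (r from 0.998 to 0.9995). An r of 0.95 was reached by 10.8% of the 13438 genes, a share that counts the tested pigment genes themselves. Layn, Nab1 and 1700025G04Rik were most like Mitf, and Sat1, Gjc3 and Asic4 most like Ednrb. Kit's pattern was rare: 22 tested genes (0.164%), Kit itself among them, reached an r of 0.95 with it. The highest of the others were Hap1 (0.986), Pax9 (0.981) and Iba57 (0.976).

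Some markers of other cells also moved with stage. Of all tested genes, 35.0% were higher and 33.7% lower in the first step, and 32.6% and 33.1% in the second. Endothelial markers summed to 7.03 to 9.74 CPM at E10.5, 19.3 to 27.9 CPM at E12.5 and 110 to 173 CPM at E14.5, but only Kdr, 1 of the 5 tested, was called in either step (means of 3.26, 18.0 and 141 CPM), and Pecam1 (2.89, 1.70 and 2.43 CPM) and Tek (0.852, 0.757 and 0.703 CPM) stayed low. Epithelial markers summed to 4.15 to 5.28, 5.87 to 7.58 and 26.0 to 43.5 CPM, with 3 of 5 higher in the first step and 4 higher and 1 lower in the second. Glial markers summed to 20.5 to 21.7, 16.9 to 19.6 and 39.3 to 46.6 CPM, with 4 of 5 higher and 1 lower in the second step. Neuronal markers summed to 37.4 to 43.6, 30.2 to 35.9 and 11.0 to 17.5 CPM, and of 4 tested in the second step Tubb3 fell (from 21.1 to 2.21 CPM), Elavl4 rose (from 2.12 to 5.86 CPM) and 2 were not called. The retinal pigment epithelium shares the pigment genes but is not of crest origin. Its markers summed to 0.335 to 0.652, 0.947 to 1.50 and 0.661 to 1.37 CPM. Rlbp1, the 1 tested, was higher in the first step and lower in the second. The part of these cells in the changes above was not tested.

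The second question was whether loss of HIRE1, or the identity of the arch, changed these genes at E10.5. The answer rests on 5 genes, since Tyr, Tyrp1, Mlana, Slc45a2 and Oca2 were too low to test. None of the 5 passed edgeR's test between HIRE1del and WT in either arch, while Mitf and Ednrb were higher in PA3 than in PA2 in both genotypes.

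Mitf stood at 3.76, 2.81 and 3.17 CPM in WT PA2, 3.08, 3.31 and 2.70 in HIRE1del PA2, 5.39, 5.36 and 4.86 in WT PA3 and 4.68, 4.16 and 5.73 in HIRE1del PA3. Every PA3 library was above every PA2 library, and the genotypes overlapped within each arch. Kit was at 43.0, 42.4 and 41.8 CPM in WT PA2, 45.8, 45.1 and 49.3 in HIRE1del PA2, 49.9, 41.6 and 41.4 in WT PA3 and 47.3, 45.4 and 37.3 in HIRE1del PA3. Kit thus lay between 37.3 and 49.9 CPM in all 12 libraries, although the PA2 genotypes did not overlap. Ednrb was at 6.62, 7.16 and 6.77 CPM in WT PA2, 2.67, 3.39 and 4.51 in HIRE1del PA2, 10.9, 12.1 and 11.2 in WT PA3 and 7.18, 6.75 and 14.6 in HIRE1del PA3. Its HIRE1del PA2 libraries were the lowest of the 12, and 1 HIRE1del PA3 library was the highest.

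Dct and Pmel varied widely within groups. Dct was at 0.0387, 0.491 and 0.0616 CPM in WT PA2, 0.113, 0.117 and 0.222 in HIRE1del PA2, 0.153, 2.25 and 0.515 in WT PA3 and 0.0748, 0 and 2.05 in HIRE1del PA3. Pmel was at 0.465, 1.37 and 0.523 CPM in WT PA2, 0.451, 0.741 and 0.591 in HIRE1del PA2, 1.07, 3.04 and 0.933 in WT PA3 and 0.748, 0.909 and 2.75 in HIRE1del PA3. In both genes WT PA3 replicate 2 and HIRE1del PA3 replicate 3 stood apart at the top, and Dct reached the filter through those 2 libraries alone. The same 2 libraries held most counts of Slc45a2 and Tyr: Tyr had 18 counts in HIRE1del PA3 replicate 3, 2 in each of WT PA3 replicates 1 and 2, 1 in HIRE1del PA2 replicate 3 and none elsewhere, and Slc45a2 had 9 in HIRE1del PA3 replicate 3, 8 and 7 in WT PA3 replicates 2 and 3 and at most 4 in any other. Tyrp1 was read as 1 count in each of 2 WT PA3 libraries, Mlana as 0 to 7 counts a library and Oca2 as 0 to 2.

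**Figure D5:**
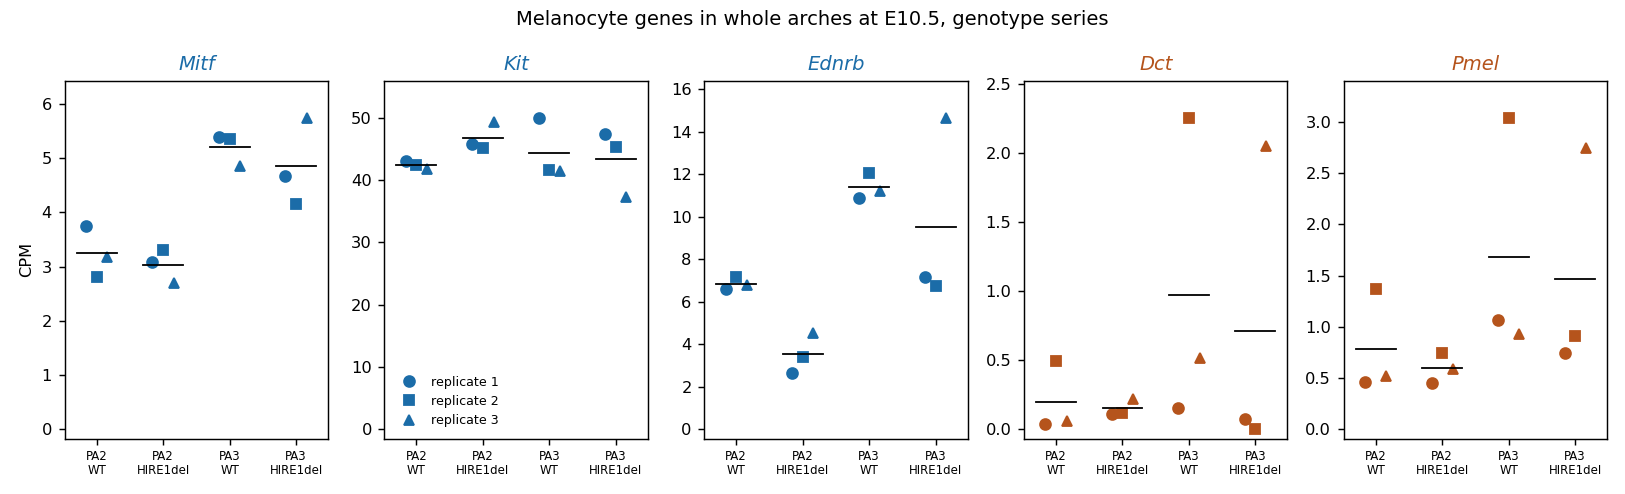
CPM of Mitf, Kit, Ednrb, Dct and Pmel in the 12 libraries of PA2 and PA3 from WT and HIRE1del embryos at E10.5, with the marker shape giving the replicate number. Mitf lies higher in all PA3 libraries (4.16 to 5.73 CPM) than in all PA2 libraries (2.70 to 3.76 CPM), and 1 PA3 library of each genotype stands apart for Dct, at 2.25 and 2.05 CPM.

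For HIRE1del against WT in PA2, 0 of 5 genes were called by edgeR's quasi-likelihood test, 1 had an unadjusted p under 0.05 and DESeq2's Wald test called 1. That was Ednrb in both cases: -0.96 ± 0.27, adjusted p = 0.251 by edgeR and 0.0332 by DESeq2. Neuronal markers summed to 56.9 to 58.9 CPM in HIRE1del PA2 and 76.2 to 78.6 CPM in WT PA2 and glial markers to 23.7 to 25.3 and 26.0 to 26.5 CPM, with no overlap, and Sox10 (-0.85 ± 0.35, adjusted p = 0.510) and Cdh19 (-0.94 ± 0.38, adjusted p = 0.509), a glial marker, did not pass edgeR's test; their part in the difference of Ednrb was not tested. The background was 0.438% of the 14383 tested genes called by edgeR and 1.13% by DESeq2. An unadjusted p under 0.05 by edgeR was found for 1233 of them. Kit differed by 0.14 ± 0.09 (adjusted p = 0.731), Mitf by -0.10 ± 0.17, Pmel by -0.40 ± 0.66 and Dct by -0.37 ± 1.72. Ednrb and Kit were the 2 of 5 whose PA2 groups were apart, as were those of 13.2% of all tested genes. For HIRE1del against WT in PA3, 0 of 5 were called by edgeR or DESeq2 and 0 had an unadjusted p under 0.05, against a background of 0.216%; Ednrb differed by -0.26 ± 0.25 (adjusted p = 0.776). The effect of HIRE1 on Ednrb in PA2 minus that in PA3 was -0.70 ± 0.36 (adjusted p = 0.887, edgeR), and 0 of 5 genes passed that test, with 0 at an unadjusted p under 0.05 and 0 by DESeq2, against 0.0487% of all genes. With SEs of 0.55 to 1.72, changes of Dct and Pmel with genotype were not detectable at this depth and spread.

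For PA3 against PA2 in WT, Mitf was higher by 0.68 ± 0.16 (adjusted p = 0.00585, edgeR) and Ednrb by 0.73 ± 0.25 (adjusted p = 0.0346), so 2 of 5 were higher and 0 lower, against 19.1% and 17.4% of all genes. The call of Ednrb was lost when any one of the 6 libraries was left out (0.70 to 0.77, adjusted p from 0.0601 to 0.0908), and Mitf's was not. Dct passed the filter through PA3 libraries alone, so a higher level there is not independent of the filter. With replicates paired by number, 4 of 5 were higher, against 21.9% of all genes: Dct (2.32, adjusted p = 0.0133, against 2.28 ± 1.28 and 0.184 unpaired) and Pmel (1.07, adjusted p = 0.0253, against 1.09 ± 0.59 and 0.166) were added. For PA3 against PA2 in HIRE1del, Mitf was higher by 0.68 ± 0.17 (adjusted p = 0.00693) and Ednrb by 1.43 ± 0.27 (adjusted p = 0.00118), 2 higher and 0 lower of 5 against 18.7% and 14.7%. Pairing added Pmel there (1.18, adjusted p = 0.0230, against 1.31 ± 0.62 and 0.125 unpaired), where 21.2% of all genes were higher. Dct stood at 2.21 ± 1.42 (adjusted p = 0.254) and turned to -1.94 without HIRE1del PA3 replicate 3. Kit differed between the arches by 0.06 ± 0.09 in WT and by -0.11 ± 0.09 in HIRE1del, neither past the threshold.

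In neither arch did edgeR call any of the 12 tested regulators, 7 ligands and receptors or 11 melanosome genes between HIRE1del and WT. The share called over all genes was 0.438% in PA2 and 0.216% in PA3. In PA2, 5, 2 and 1 of them had an unadjusted p under 0.05 in that test, beside 1233 of all 14383 tested genes. In PA3 the counts were 5, 0 and 1, beside 1400 of all genes. Between the arches of WT embryos, where 19.1% of all genes were higher and 17.4% lower, 4 regulators were higher and 2 lower in PA3, led by Erbb3 (1.39 ± 0.11) and Sox10 (1.13 ± 0.32), 2 ligands and receptors were higher and 3 lower, Hgf at -0.90 ± 0.10 among them, and 3 melanosome genes were higher and 2 lower, with Gpnmb at 2.10 ± 0.47 and Trpm1 at -3.20 ± 0.23. In HIRE1del embryos the counts were 3 and 2, 2 and 2, and 2 and 3, against 18.7% and 14.7% of all genes.

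The 2 arches also differed in cell makeup as read from markers. Of all tested genes, 19.1% were higher and 17.4% lower in WT PA3 than in WT PA2. Blood markers summed to 1312 to 2890 CPM in the PA2 libraries and 10515 to 21123 CPM in the PA3 libraries, and 5 of 6 were called higher in WT PA3. Endothelial markers summed to 273 to 290 CPM in PA2 and 323 to 359 CPM in PA3 (5 of 6 higher in WT), and neuronal markers to 56.9 to 78.6 and 131 to 224 CPM (6 of 6 higher). Epithelial markers summed to 123 to 148 and 215 to 305 CPM, but 2 of 5 were higher and 1, Krt14, lower in WT (from 1.32 to 0.180 CPM), and glial markers summed to 23.7 to 26.5 and 27.8 to 36.2 CPM (1 of 4 higher). These levels are those of whole tissue, although the labels name the cells as neural crest, and the part of these cells in the differences between the arches was not tested.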

How the data were processed

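Mouse RNA was sequenced with reads of 50 bases from 9 stage and 12 genotype libraries. The authors deposited raw counts per gene for each series, with no normalization; by the study's methods, reads were aligned and counted with QuasR 1.34.0 and Rhisat2 1.12.0 on mm10 with UCSC known genes (release 3.4.7). The kit is described as unstranded and the counting as taking one orientation, so reads of genes that overlap on opposite strands cannot be told apart here.

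Counts were analysed per series in R 4.3.3 with edgeR 4.0.16 (TMM scaling, genes at 1 CPM or more in at least 2 libraries, quasi-likelihood test on group contrasts, Benjamini-Hochberg adjustment, threshold 0.05). SE is the size of the log2 fold change over the root of F. DESeq2 1.42.0 was the alternative test, and the scripts were tested on simulated counts. Other alternatives were size factors, filters, a replicate block, only the groups compared, and leaving out each library. Depth was 25804446 to 49058941 counts a library; intervals and floors cover counting error only. Replicates of a group differed by more than sampling noise (chi-square per degree of freedom 6.68 to 44.2). For 18 genes without a symbol no name was used. Positions are from GENCODE M21 on GRCm38. All 10 members were named in every comparison; at most 4 genes a list, those called with the largest fold change, and the genes most like the members were named besides, with Sox10 in the first stage step and in HIRE1del PA2, Trpm1 in the first stage step and single marker genes of other cells added after their values were seen.

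PA2 and PA3 libraries with the same number and genotype deviated together (correlations of deviations 0.230 to 0.382 in WT and 0.213 to 0.342 in HIRE1del), so these numbers were taken as pairs; the pairing comes from the data, as the labels give a number only. The members and lists were chosen with earlier results of these data known.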

Additional observations from a re-analysis of the deposited data

Results flagged for a closer look

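Of the 9 genes tested over the stages, 4 changed by a different amount in the step from E12.5 to E14.5 than in the step from E10.5 to E12.5, by the test of that difference itself in edgeR's quasi-likelihood fit; 3 were higher and 1 lower, a share near that of all genes, of which 20.5% were higher and 22.9% lower. The second step minus the first was 2.16 on the log2 scale for Kit, whose steps had opposite signs, 2.15 for Ednrb, 0.99 for Mitf and -1.49 for Tyr. The call of Tyr was lost without E10.5 replicate 1 or 3 or E12.5 replicate 1 or 3 (adjusted p from 0.0689 to 0.107). Enzyme and, in the first step, dissection site changed with stage and cannot be told apart from it.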

How the results depend on the processing

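Over the alternative settings, 416 of 428 repeated values of the 35 called differences stayed called in the same direction, 12 lost the call and 0 reversed. Of 341 repeated values of the 26 differences not called, 7 passed the threshold and 33 reversed, the reversals all on leaving out a library. With the replicate block, PA3 against PA2 in WT gave 4 called members in place of 2, and without any one library 1. DESeq2's Wald test called 1 member in HIRE1del PA2 against 0; over all genes it called 162, 94 and 29 (HIRE1 effect in PA2, in PA3 and their difference) against 63, 31 and 7. The replicate block called 105, 54 and 12 by number and 26 for the difference by genotype and number; it changed no other call of a member than Dct and Pmel between arches. Stage libraries and HIRE1del and WT libraries share only a number: their same-numbered deviations were not all above 0.1, and not every library correlated best with its own number; the block left the counts of members at 9, 9, 9 and 4 over the stages and at 0 for HIRE1.

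The mean log2 ratio of pigment to specification genes moved with the constant added: -5.37 and -3.39 at E10.5 and E12.5 with 0.1 CPM, and -2.63, -1.85 and -1.54 at the 3 stages with 2 CPM. Without Oca2 it was -2.38 at E12.5 and -1.23 at E14.5. The order of the stages was unchanged in each of these.

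Leaving out 1 library at a time moved differences that were not called across 0. Their lowest and highest log2 values were -0.0167 and 0.68 for Pmel in the difference of the steps; -0.19 and 0.0179 for Mitf, -0.83 and 1.48 for Dct and -0.65 and 0.26 for Pmel with HIRE1del in PA2; -0.10 and 0.0571 for Kit, -0.24 and 0.0026 for Mitf, -4.60 and 1.05 for Dct and -1.02 and 0.56 for Pmel with HIRE1del in PA3; -0.0235 and 0.12 for Kit between WT arches; -1.94 and 2.80 for Dct between HIRE1del arches; and -0.0915 and 0.16 for Mitf, -1.41 and 4.23 for Dct and -0.95 and 0.62 for Pmel in the difference of the HIRE1 effects. The cause of these shifts was not tested. Oca2, tested with no filter, was called in the second step (4.08, adjusted p = 8.21e-05, edgeR). Genes at a few counts, Tyrp1, Mlana and Oca2 before E14.5 above all, are limited by depth.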
